A study of Homo sapiens with 22 samples.

Results

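Therapy-naive H3122 xenograft tumours grown in hHGF-NSG mice were compared with those grown in NSG mice, using the human genes, which stand for the tumour cells. The 7 therapy-naive samples among the 22 samples of the series were taken by their labels, 3 from hHGF-NSG and 4 from NSG hosts. The other 15 samples come from the same 2 hosts after 2 or 6 weeks of alectinib, an ALK inhibitor, and form 4 of the 6 groups of the series. H3122 is a human lung adenocarcinoma line driven by an ALK fusion. All 7 tumours were untreated, and all hosts were NSG mice, an immunodeficient strain that lacks T, B and natural killer cells. The hHGF-NSG host adds human HGF, and the labels give neither the allele nor the tissue that expresses it. One cell line, H3122, was used throughout, so the differences below are those of this line. The labels do not say that each sample came from a separate mouse, so every p-value measures only the spread between these samples.

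HGF, hepatocyte growth factor, is secreted as an inactive precursor by mesenchymal cells and, once cleaved, binds the receptor tyrosine kinase MET on epithelial cells. MET activates the RAS-ERK and PI3K pathways and is known for a programme of scattering, motility and matrix breakdown called invasive growth. Mouse HGF is a poor ligand for human MET, and in lung cancer HGF-MET signalling is a known bypass route under kinase inhibitors.

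The host labels were checked first with human HGF, whose reads can only come from the host's gene or from the tumour. HGF had 13, 28 and 44 reads (0.0978, 0.187 and 0.301 FPKM, a count scaled by gene length and library size) in the 3 hHGF-NSG libraries, against 43, 0, 0 and 1 reads (0.320, 0, 0 and 0.0061 FPKM) in NSG replicates 1 to 4. The library labelled NSG naive replicate 1 thus lay above every hHGF-NSG library, and the other NSG libraries lay below all of them. A count of 0 allows up to 0.0194 and 0.0222 FPKM, the value of 3 reads, in NSG replicates 2 and 3. The mean difference was 0.15 on the log2(FPKM + 1) scale with all libraries (exact two-sided permutation p = 0.314, smallest possible 0.0286). Leaving out the library labelled NSG naive replicate 1 gave 0.25 for the mean difference, given with no test, since that library was singled out by its HGF value.

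Mouse genes gave a second reading of the host, chosen without the naive libraries. In the 14 treated libraries with a mouse column, 7 from each host, 19 mouse genes did not overlap between the hosts and had a gap of at least 1 on the log2 scale. All 19 were higher in NSG. Of the 19, the hHGF-NSG naive libraries had 18, 18 and 17 on the hHGF-NSG side, NSG replicates 3 and 4 had 1 each, and the library labelled NSG naive replicate 1 had 18. H2-Ea-ps, a mouse MHC class II pseudogene, was listed at 0 FPKM in all 3 hHGF-NSG libraries, against 80.6 and 62.2 FPKM in NSG replicates 3 and 4 and 0 in the library labelled NSG naive replicate 1. NSG naive replicate 2 was not analysed in the mouse table. By the mouse genes, which played no part in singling it out, the library labelled NSG naive replicate 1 goes against its label. It was not moved to the other host, and the main results are given with it and without it.

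**Figure D1:**
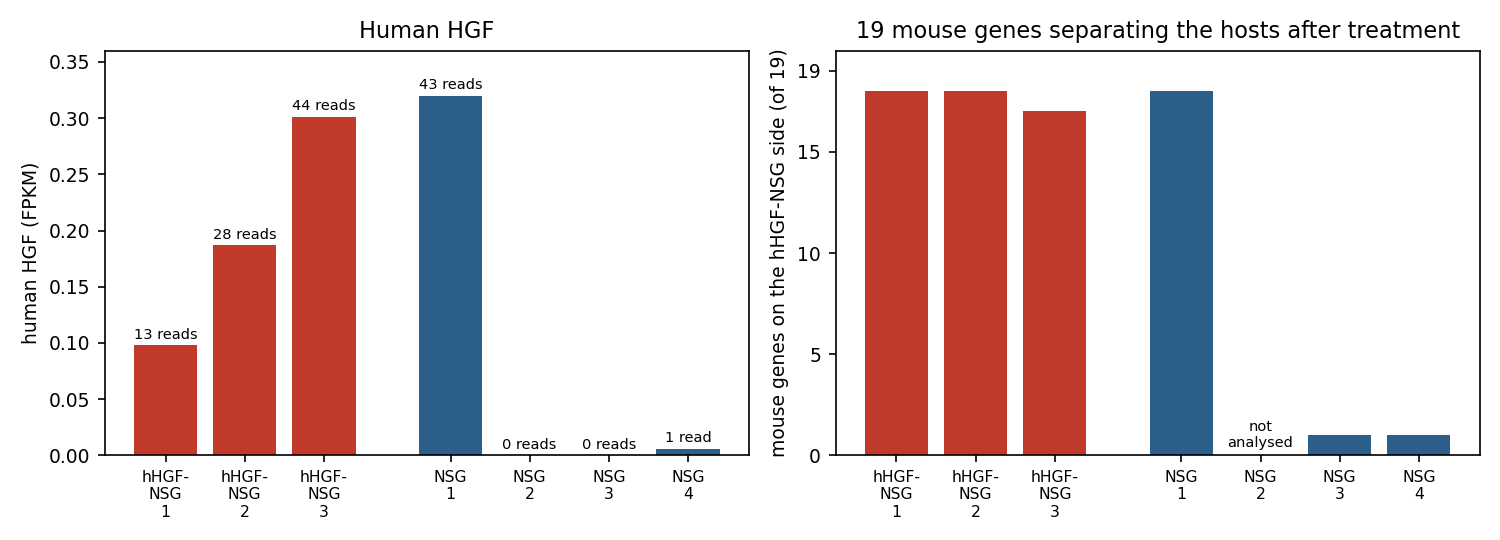
Human HGF in FPKM with its reads (left) and the number of 19 host-separating mouse genes that lie on the hHGF-NSG side (right), 1 bar per naive library, hHGF-NSG in red and NSG in blue. The library labelled NSG naive replicate 1 stands with the hHGF-NSG libraries in both panels, at 0.320 FPKM and 18 of 19 genes.

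The naive libraries held 14821038 to 19065656 reads on human genes, recovered from the FPKM. Epithelial and lung markers of the line were present in every library: EPCAM, an epithelial adhesion molecule, had 291 to 349 FPKM, the lung lineage factor NKX2-1 64.6 to 104 FPKM and ALK 3.26 to 4.02 FPKM. Among 11 human fibroblast markers, 7 stayed under 0.1 FPKM in all 7 libraries, with POSTN at 0, while COL1A1 had 31.4, 25.3 and 102 FPKM in hHGF-NSG, against 30.3, 8.89, 30.8 and 27.6 FPKM in NSG. LUM, also on that list, had 12.3, 16.4 and 10.2 FPKM in hHGF-NSG, against 11.6, 17.3, 9.23 and 10.7 FPKM in NSG. The summed level of the fibroblast list was 42.0 to 112 FPKM in hHGF-NSG and 26.8 to 42.2 FPKM in NSG. The leukocyte list summed to 0.83 to 1.85 FPKM in hHGF-NSG and 0.56 to 1.18 FPKM in NSG, and the endothelial list to 5.65 to 7.78 and 4.96 to 8.43 FPKM. Mouse reads made up 6.81%, 8.93% and 13.5% of all recovered reads in hHGF-NSG, against 11.99%, 5.50% and 6.32% in NSG replicates 1, 3 and 4. The difference in that share was 1.80 percentage points (exact two-sided permutation p = 0.5, smallest possible 0.1), 3.83 without NSG replicate 1 and -0.07 without hHGF-NSG replicate 3. Whether reads matching both genomes were removed is not given in the sources used here.

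With all 7 libraries, the human transcriptomes of the 2 hosts were hard to tell apart. Of 16029 genes tested, 3 were called, which is 0.0187%, with 2 higher (0.0125%) and 1 lower (0.00624%) in hHGF-NSG. A gene was called at an adjusted p under 0.05 in limma's moderated test on log2(FPKM + 1), with Benjamini-Hochberg adjustment over all tested genes. At an unadjusted p under 0.05 there were 1427 genes (8.9%), 666 higher (4.15%) and 761 lower (4.75%). The 3 genes were SLC2A3, ST6GALNAC1 and RNA5SP283. No gene was called without hHGF-NSG replicate 1 or without NSG replicate 4, and 1 was called without hHGF-NSG replicate 2 or NSG replicate 3. A fit on the naive libraries alone called no gene, with 864 of the 12989 genes that then passed the filter at an unadjusted p under 0.05, and none of the same 16029 genes, with 1143. Voom on the recovered reads with all groups called 4.

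SLC2A3, which encodes the high-affinity glucose transporter GLUT3, was higher in hHGF-NSG tumours. It had 13.8, 10.6 and 11.2 FPKM in hHGF-NSG, against 7.26, 5.65, 6.96 and 5.82 FPKM in NSG. The lowest hHGF-NSG library lay above the highest NSG library, and the library labelled NSG naive replicate 1 was the highest of its group. The difference was 0.79 (SE 0.105, limma adjusted p = 0.00498), and 0.85 (SE 0.113, adjusted p = 0.00249) without that library. The call was lost without hHGF-NSG replicate 1 (adjusted p = 0.0842), without NSG replicate 4 (0.0520) and with a pseudocount of 0.1 (0.395), and SLC2A14, a near-identical neighbour on chromosome 12, can share reads with it. No other gene of the 22 tested glycolysis genes was called, and their median difference was -0.03, against -0.01 over all tested genes.

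ST6GALNAC1, a sialyltransferase that caps mucin-type O-glycans to form sialyl-Tn, was lower in hHGF-NSG tumours. Its level was 34.9, 36.6 and 34.8 FPKM in hHGF-NSG, against 46.9, 54.2, 50.9 and 48.9 FPKM in NSG. Both groups were tight, and neither overlapped the other. The difference was -0.49 (SE 0.074, limma adjusted p = 0.0173), and -0.52 (SE 0.079, adjusted p = 0.00542) without the library labelled NSG naive replicate 1. Of 7 fits that each dropped 1 naive library, only 2 kept the call, those lacking NSG replicate 1 or 2. In the rest the limma adjusted p was 0.0534 to 0.0949, highest when hHGF-NSG replicate 1 was dropped. The call held with a pseudocount of 0.1 (adjusted p = 0.0137) and with voom (0.0354). It was lost with the replicate number as a block (0.0545) and in the fit on the naive libraries alone (0.670).

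RNA5SP283 is a pseudogene of the 5S ribosomal RNA on chromosome 9. It had 9, 4 and 4 reads in hHGF-NSG (5.58, 2.20 and 2.26 FPKM) and 0 reads in each of the 4 NSG libraries. Summed over the hosts, that is 17 reads against 0, at least 7.92-fold higher in hHGF-NSG when 3 reads over the NSG group are taken as the limit. RNA5SP283 passed the filter on low values only through the hHGF-NSG naive libraries, where it is high. Its call and this fold therefore rest on the values that let it into the test. The call (limma adjusted p = 0.0226) held in 2 of 7 fits that left out 1 naive library, with adjusted p up to 0.179 without hHGF-NSG replicate 1. It was also lost with a pseudocount of 0.1 (adjusted p = 0.0556) and with voom (adjusted p = 0.0876). The sequences below, from GENCODE transcripts on GRCh38, are shown because such short genes belong to families of near-identical copies among which reads can be split. RNU6-863P, a U6 pseudogene taken up below, is given beside it, and no base is marked.
RNA5SP283, chr9:62802320-62802438, minus strand: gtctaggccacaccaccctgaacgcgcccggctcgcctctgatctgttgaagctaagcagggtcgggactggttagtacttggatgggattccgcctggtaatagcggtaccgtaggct
RNU6-863P, chr7:76087444-76087547, plus strand: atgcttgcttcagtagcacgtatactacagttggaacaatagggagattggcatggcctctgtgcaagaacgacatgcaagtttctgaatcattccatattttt

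With the library labelled NSG naive replicate 1 left out, the same fit called 40 of 16029 genes (0.25%), among them the 3 above. Of the 40, 11 were higher (0.0686%) and 29 lower (0.181%) in hHGF-NSG. Protein is coded by 31 of the 40, and by 12022 of all 16029 tested genes. At an unadjusted p under 0.05 there were 1890 genes (11.8%), 826 higher (5.15%) and 1064 lower (6.64%). Calls by voom on the recovered reads came to 67, and a fit on the 6 naive libraries alone called no gene, with 1197 of the 12786 genes that then passed the filter at an unadjusted p under 0.05 and a lowest adjusted p of 0.0629 among the 40. On the same 16029 genes that fit called none as well, with 1519 at an unadjusted p under 0.05. With all 7 libraries, the 37 further genes had adjusted p-values of 0.144 to 0.433. With 1 further library left out there were 13, 24 and 36 calls (hHGF-NSG replicates 1, 2 and 3) and 25, 23 and 20 calls (NSG replicates 2, 3 and 4). Of the 40, 8 stayed called when any 1 further naive library was left out: LRRC26, BMP7, UCP2, SLC2A3, ST6GALNAC1, AL162424.1, RNU6-863P and ENSG00000200090, a short gene of class misc_RNA. The filter on low values took 5 of the 40 only through the hHGF-NSG naive libraries, where they are high: AL162424.1, AP005233.2, MIR6784, RNA5SP283 and RNU6-863P. Their calls rest on that filter and on low levels in the treated groups, which share in the estimate of the spread. Complete separation of the 3 hHGF-NSG and 3 NSG libraries was common over all tested genes, at 7.0% in the higher and 7.03% in the lower direction. With all 4 NSG libraries these shares were 3.71% and 3.22%. Fewer libraries separate completely more often by chance, so the shares of the 2 fits cannot be compared directly.

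The left-out library entered none of these 40 estimates, and none of the 40 passed the filter only through it. It was nearer to the hHGF-NSG mean than to the mean of the other NSG libraries in 34 of the 40 genes (85.0%), against 57.7% of all tested genes. Its value fell inside the range of the hHGF-NSG libraries in 9 of the 40 and inside that of the other NSG libraries in 1. Over all tested genes these shares were 64.5% and 56.9%. For the rest of the 40 it fell outside both ranges.

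**Figure D2:**
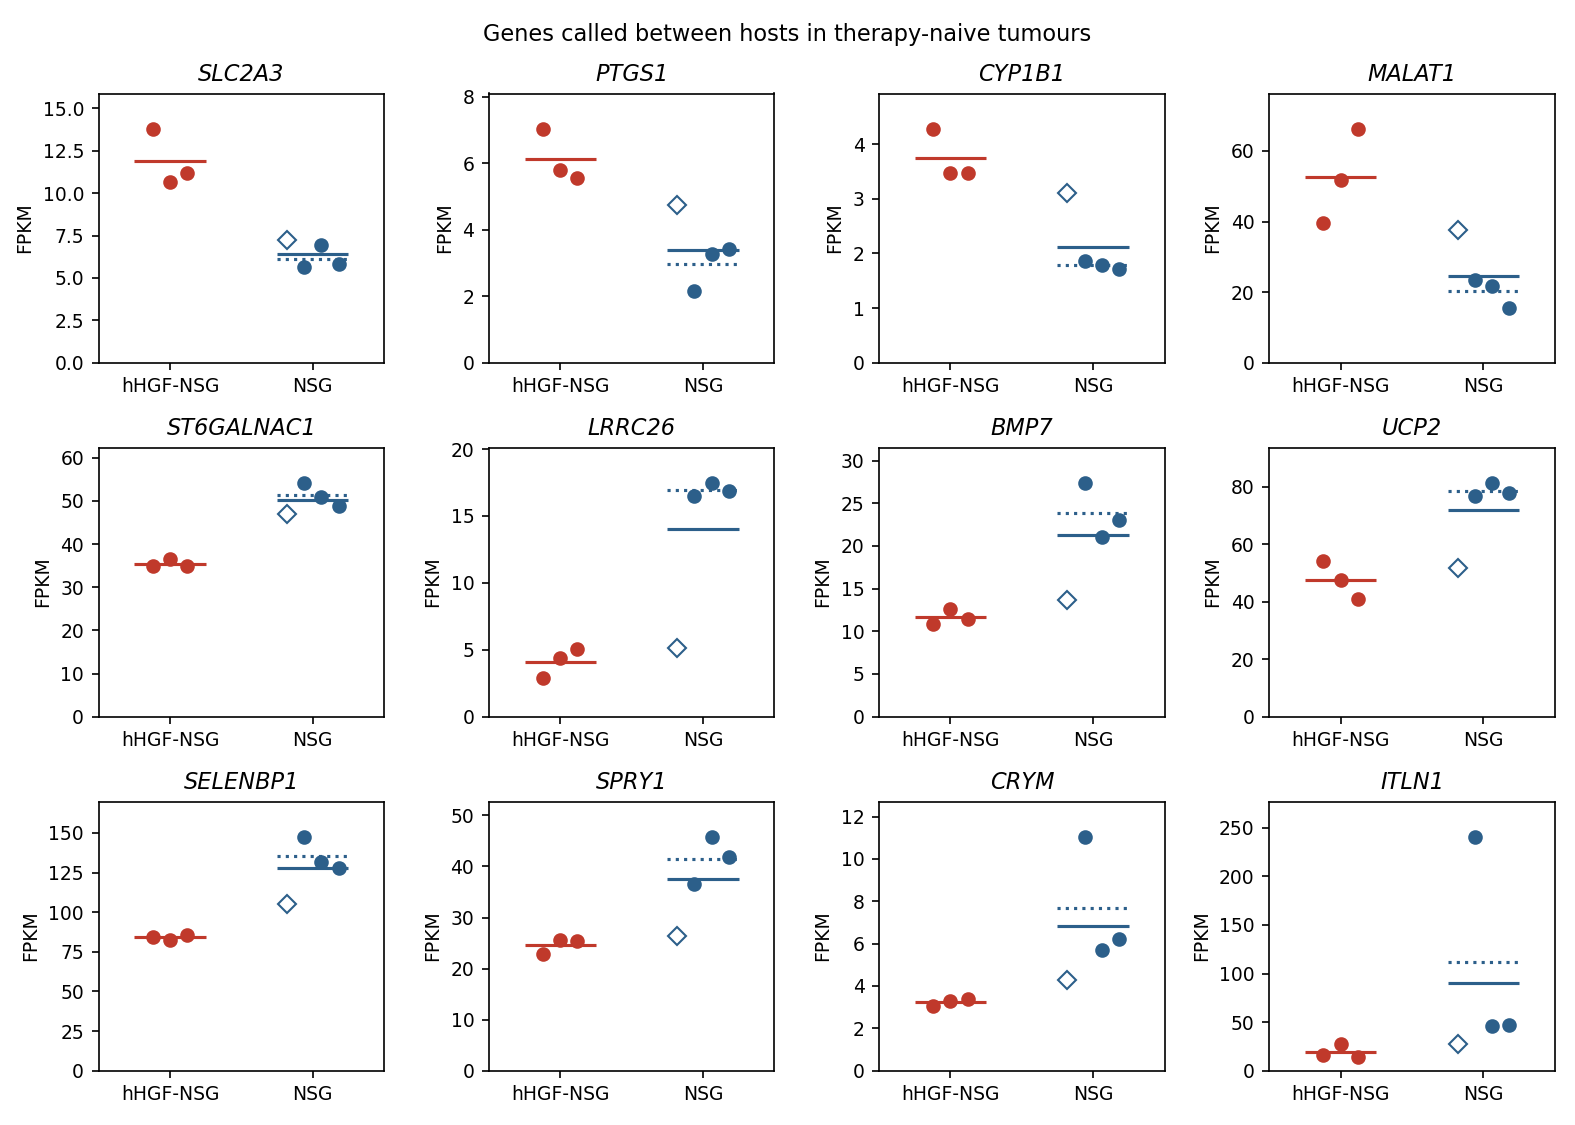
FPKM of 12 genes called between the hosts in naive tumours, 1 point per library, hHGF-NSG in red (left) and NSG in blue (right). SLC2A3 and ST6GALNAC1 were called with all 7 libraries, and the other genes only without the library labelled NSG naive replicate 1. Solid lines are group means, the open diamond is the library labelled NSG naive replicate 1 and the dotted line is the NSG mean without it. For LRRC26 and UCP2 the diamond sits among or next to the hHGF-NSG points, at 5.14 and 51.8 FPKM, and for SLC2A3 and ST6GALNAC1 it sits on the NSG side, at 7.26 and 46.9 FPKM.

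The 31 protein-coding genes are described here by role, in groups formed after their values were seen and given no test. The first 9 of the 28 lower genes act in the secretory route or in glycosylation, a group whose share among all tested genes was not counted. LRRC26, an accessory subunit of the BK potassium channel in secretory epithelia, had 2.87, 4.39 and 5.06 FPKM in hHGF-NSG, against 16.5, 17.5 and 16.9 FPKM in NSG replicates 2 to 4. The library labelled NSG naive replicate 1 had 5.14 FPKM, next to the highest hHGF-NSG library. Its difference was -1.84 (SE 0.201, limma adjusted p = 0.000392) without that library and -1.45 (SE 0.294, adjusted p = 0.147) with it. ITLN1, a lectin secreted by goblet cells, had 15.9, 27.4 and 14.3 FPKM in hHGF-NSG, against 241, 46.1 and 47.3 FPKM in NSG replicates 2 to 4 and 27.6 FPKM in replicate 1. NSG replicate 2 set the size of that difference, which was -2.08 (SE 0.427, adjusted p = 0.0474) without replicate 1 and -1.70 (adjusted p = 0.253) with it.

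B3GNT3, an enzyme that extends core 1 O-glycans, had 57.0, 69.4 and 69.9 FPKM in hHGF-NSG, against 90.6, 101 and 103 FPKM in NSG replicates 2 to 4 and 78.4 FPKM in replicate 1 (-0.58, SE 0.107, limma adjusted p = 0.0261 without replicate 1, and -0.50, adjusted p = 0.162, with it). Differences without replicate 1 follow for the others. ALG1, a mannosyltransferase of N-glycan assembly, differed by -0.46. CKAP4, a membrane protein of the rough endoplasmic reticulum, differed by -0.60. HID1, which acts in dense-core granule formation at the Golgi, differed by -0.59. SYNGR2, a vesicle membrane protein, and CYB561, a vesicle cytochrome b561, differed by -0.48 and -0.41. With ST6GALNAC1, all 9 had lower values in each hHGF-NSG library than in each of NSG replicates 2 to 4, as did 7.03% of all tested genes. The 9 were called in that same comparison, so their separation adds no support.

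Among growth factor and cell surface genes, BMP7, a secreted bone morphogenetic protein, was lower. It had 10.9, 12.6 and 11.4 FPKM in hHGF-NSG, against 27.4, 21.03 and 23.1 FPKM in NSG replicates 2 to 4. The library labelled NSG naive replicate 1 had 13.7 FPKM and lay just above the hHGF-NSG libraries. The difference was -0.97 (SE 0.144, limma adjusted p = 0.00527) without that library and -0.78 (SE 0.172, adjusted p = 0.169) with it. SPRY1, a feedback inhibitor of receptor tyrosine kinase signalling, had 22.9, 25.5 and 25.4 FPKM in hHGF-NSG, against 36.6, 45.9 and 41.8 FPKM in NSG replicates 2 to 4 and 26.3 FPKM in replicate 1. Its difference was -0.72 (SE 0.133, adjusted p = 0.0261) without replicate 1 and -0.57 (adjusted p = 0.262) with it. Again without replicate 1, the heparan sulfate proteoglycans GPC3 and SDC2 differed by -0.90 and -0.94, the semaphorin SEMA4A by -0.60, LIMK2, a kinase that phosphorylates cofilin, by -0.42 and ASAP3, an ARF GTPase-activating protein, by -0.76. SDC2 had 7.28, 8.28 and 7.03 FPKM in hHGF-NSG, against 12.05, 22.9, 12.9 and 12.1 FPKM in the 4 NSG libraries, so here replicate 1 lay with its own group.

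Metabolic genes went both ways. UCP2, a carrier of the inner mitochondrial membrane, had 54.0, 47.7 and 41.1 FPKM in hHGF-NSG, against 76.8, 81.5 and 77.8 FPKM in NSG replicates 2 to 4. The library labelled NSG naive replicate 1, at 51.8 FPKM, fell inside the hHGF-NSG range. Without it the difference was -0.72 (SE 0.109, limma adjusted p = 0.00542), and with it -0.57 (adjusted p = 0.214). SELENBP1, a methanethiol oxidase, had 84.6, 82.6 and 85.4 FPKM in hHGF-NSG, against 148, 132 and 128 FPKM in NSG replicates 2 to 4 and 105 FPKM in replicate 1 (-0.68, SE 0.115, adjusted p = 0.0171 without replicate 1, and -0.59, adjusted p = 0.144, with it). PYCR1, the last enzyme of proline synthesis, differed by -0.54 and CRYM, a ketimine reductase that binds thyroid hormone, by -0.98. PTGS1, the cyclooxygenase COX-1, was higher at 7.04, 5.78 and 5.55 FPKM in hHGF-NSG, against 2.17, 3.27 and 3.42 FPKM in NSG replicates 2 to 4 and 4.74 FPKM in replicate 1. Its difference was 0.86 (SE 0.133, adjusted p = 0.00613) without replicate 1 and 0.72 (adjusted p = 0.144) with it, and AL162424.1, annotated within a PTGS1 intron on the same strand, went the same way by 1.27. CYP1B1, a cytochrome P450 of hormone and xenobiotic oxidation, was higher by 0.77 (SE 0.145, adjusted p = 0.0294) without replicate 1 and had a difference of 0.62 (adjusted p = 0.222) with it.

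The remaining 8 lower genes fall in no common role. OVOL2, a repressor that maintains the epithelial state, had 3.12, 4.40 and 4.27 FPKM in hHGF-NSG, against 6.73, 7.12 and 5.83 FPKM in NSG replicates 2 to 4 (-0.62, SE 0.124, limma adjusted p = 0.0400, and -0.55, adjusted p = 0.180, with replicate 1). TBX10, a T-box factor, and TCEA3, a transcription elongation factor, both differed by -0.83. MAGED1 and FAIM2, an inhibitor of FAS-driven apoptosis, differed by -0.59 and -0.64, DAP by -0.58, GPA33, an intestinal cell surface antigen, by -0.51 and the cytidine deaminase APOBEC3B by -0.66.

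Of the 9 non-coding genes called, 8 were higher. That count is no result about direction, since 5 of the higher ones, named above, passed the filter only through the hHGF-NSG naive libraries. The share of higher genes among all tested non-coding genes was not counted. MALAT1, an abundant nuclear long non-coding RNA, had 39.5, 51.7 and 66.3 FPKM in hHGF-NSG, against 23.5, 21.7 and 15.6 FPKM in NSG replicates 2 to 4 and 37.7 FPKM in replicate 1. The difference was 1.32 (SE 0.248, limma adjusted p = 0.0286) without replicate 1 and 1.10 (SE 0.261, adjusted p = 0.221) with it. NEAT1, the nuclear RNA that builds paraspeckles, had 41.3, 39.4 and 35.1 FPKM in hHGF-NSG, against 18.2, 24.8 and 18.4 FPKM in NSG replicates 2 to 4 and 41.6 FPKM in replicate 1, without being called (0.89, SE 0.223, adjusted p = 0.0934 without replicate 1, and 0.64, adjusted p = 0.450, with it). NEAT1 was chosen after its values were seen. Other lincRNA genes, without these 2, took 0.333% to 0.344% of human reads in hHGF-NSG, against 0.286% to 0.313% in NSG replicates 2 to 4 and 0.335% in replicate 1. The mouse read share was highest in hHGF-NSG replicate 3, which also had the most MALAT1. The part of either in these differences was not tested.

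KRT7-AS, annotated antisense to the keratin gene KRT7, had 9.20, 9.33 and 9.06 FPKM in hHGF-NSG, against 4.30, 4.16 and 3.08 FPKM in NSG replicates 2 to 4 and 9.19 FPKM in replicate 1 (1.08, SE 0.218, limma adjusted p = 0.0410, and 0.81, adjusted p = 0.328, with replicate 1). Strand use in counting is not given in the sources used here, so reads of KRT7 and KRT7-AS cannot be told apart, and KRT7 itself differed by 0.22 without being called. The lincRNA AP005233.2 differed by 1.14. The shortest genes rest on few reads. RNU6-863P had 7, 4 and 4 reads in hHGF-NSG, against 0 in each of NSG replicates 2 to 4 and 3 in replicate 1, which is at least 5.45-fold higher without replicate 1. MIR6784 had 4, 1 and 3 reads in hHGF-NSG, against 0 in NSG replicates 2 to 4 and 1 in replicate 1 (at least 2.90-fold). SNORD116-6, 1 of a family of small nucleolar RNA copies, had 0 reads in hHGF-NSG, against 2, 2 and 5 in NSG replicates 2 to 4 and 0 in replicate 1 (at least 2.75-fold lower). ENSG00000200090 had 12, 11 and 6 reads in hHGF-NSG, against 2, 1 and 0 in NSG replicates 2 to 4, and 18 in the library labelled NSG naive replicate 1, the most of all.

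**Figure D3:**
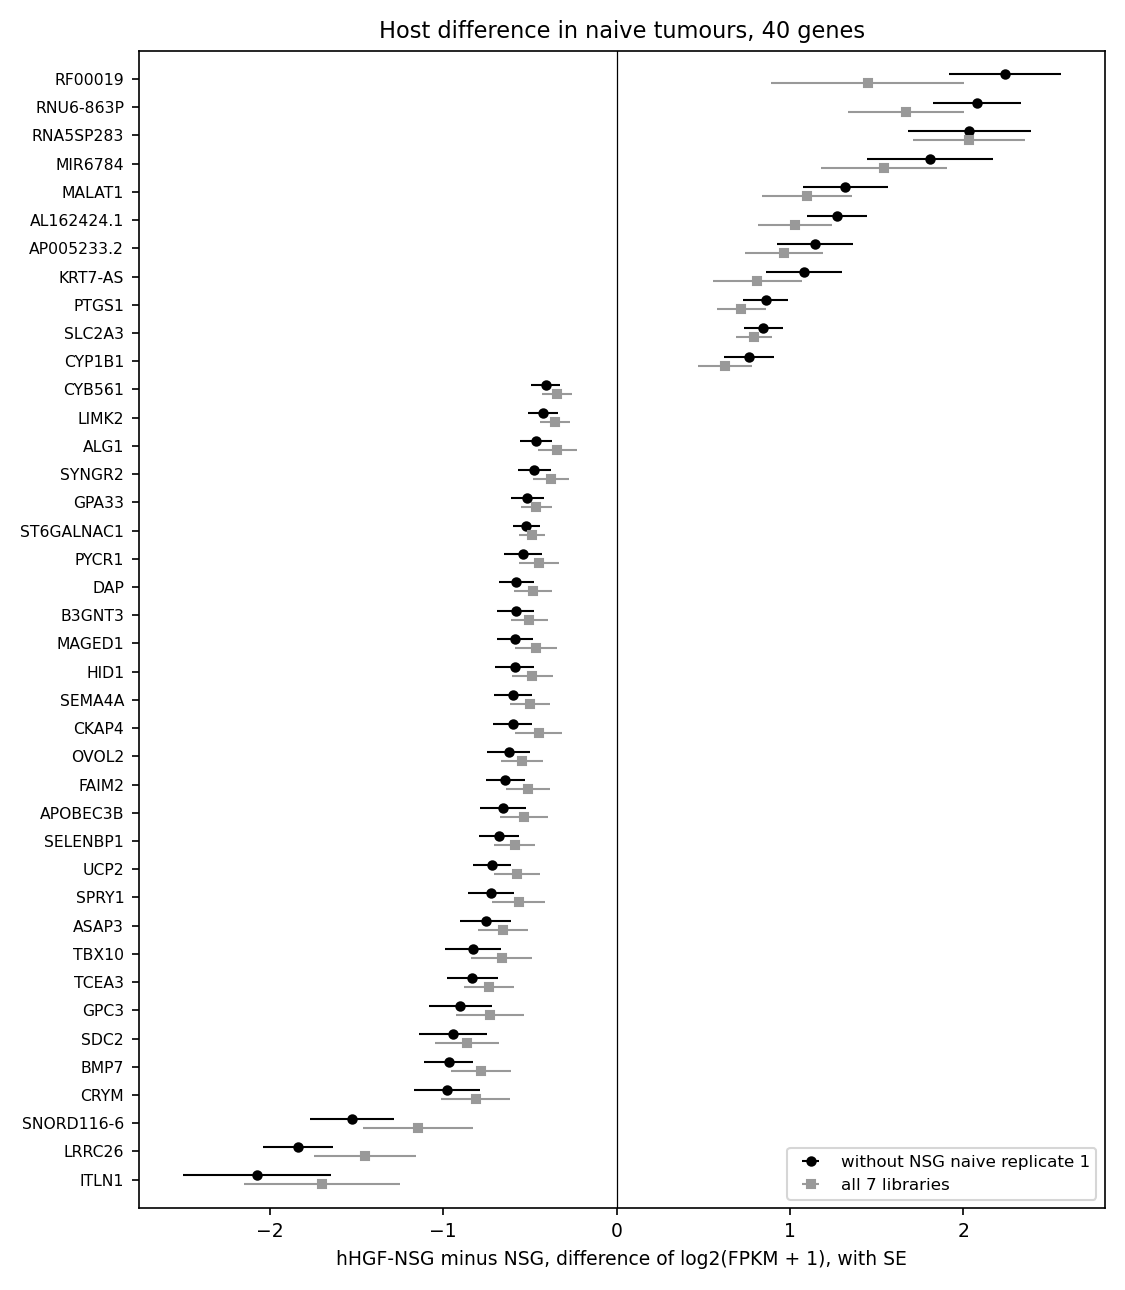
Host difference of log2(FPKM + 1) with its SE for the 40 genes called without the library labelled NSG naive replicate 1 (black circles), and the same genes with all 7 libraries (grey squares). The direction is the same in both fits, and most differences are smaller with all libraries, as for LRRC26 at -1.84 and -1.45.

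The rule for named genes also took genes short of the threshold. TGFA, a ligand of the EGF receptor, had 53.1, 45.8 and 50.5 FPKM in hHGF-NSG, against 41.1, 23.8, 38.8 and 34.6 FPKM in NSG, with no overlap (0.54, SE 0.133, limma adjusted p = 0.222, and 0.63, adjusted p = 0.0524, without the library labelled NSG naive replicate 1). MBOAT2, a lysophospholipid acyltransferase, had 18.4, 17.2 and 20.02 FPKM in hHGF-NSG, against 14.8, 10.4, 10.7 and 10.9 FPKM in NSG (0.63, adjusted p = 0.222). Others with higher values in hHGF-NSG were the laminin chain LAMA3 (0.84), the matrix protein THBS1 (0.84), the metalloprotease ADAM19 (0.73), ANKRD13B (0.70), the tropomyosin TPM2 (0.63), the histone gene HIST1H4H (0.63), the phosphatase-like MTMR11 (0.58), ARGLU1 (0.56), the lysyl oxidase LOXL2 (0.55), the adhesion receptor ADGRF1 (0.41) and SPANXC (1.12). Adjusted p-values for these 11 ran from 0.169 to 0.400 with all libraries and from 0.0631 to 0.162 without NSG replicate 1. C1orf210 had lower values (-0.52, adjusted p = 0.162). SPANXC belongs to a family of near-identical copies on the X chromosome, so its reads are uncertain.

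No gene of HGF activation and MET signalling was called. MET had 24.6, 28.8 and 26.9 FPKM in hHGF-NSG, against 25.7, 27.2, 22.7 and 25.5 FPKM in NSG (0.08, SE 0.099, limma adjusted p = 0.902, and 0.09, adjusted p = 0.843, without replicate 1), and the groups overlapped. The membrane protease inhibitors SPINT1 and SPINT2, which block HGF activation, differed by -0.21 and -0.23, the protease ST14 (matriptase), which cleaves pro-HGF, by -0.05 and the MET adaptors GRB2 and GAB1 by -0.05 and -0.14. Of 14 genes in the list 12 were tested, none passed an unadjusted p of 0.05, and the median was -0.05 with all libraries and -0.06 with replicate 1 of NSG left out. Among 18 ERK feedback and output genes the median was 0.01, with 1 higher and 2 lower at an unadjusted p under 0.05, and 0.02 with 1 higher and 4 lower without replicate 1. SPRY1, described above, was the 1 called without replicate 1. SPRY2 and ETV4 had lower values in hHGF-NSG as well (-0.26 and -0.30, adjusted p = 0.410 and 0.578), and the receptor EPHA4 higher ones (0.45, adjusted p = 0.391). The 15 tested immediate early genes had a median of 0.02, with none past an unadjusted p of 0.05.

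The median difference of invasive growth and matrix proteolysis genes was above 0 with all libraries and smaller without 2 of them. Of 20 genes 16 were tested, none was called, 6 were higher and 1 lower at an unadjusted p under 0.05, and the median difference was 0.39, against -0.01 over all tested genes. Without NSG replicate 1 the median was 0.45, again with 6 higher and 1 lower. LAMB3, a chain of laminin-332, had 26.1, 20.7 and 57.4 FPKM in hHGF-NSG, against 19.95, 4.82, 23.5 and 26.0 FPKM in NSG. PLAU, the urokinase protease, had 31.7, 23.0 and 42.8 FPKM in hHGF-NSG, against 24.9, 7.54, 26.4 and 25.2 FPKM in NSG. NSG replicate 2 was the lowest of the 7 libraries in 13 of the 16 genes and hHGF-NSG replicate 3 the highest in 13, against 17.9% and 14.9% of all tested genes. The median was 0.17 without NSG replicate 2, 0.26 without hHGF-NSG replicate 3 and 0.05 without both. These 2 libraries were picked as the extremes of this list, so a smaller median without them is built into the choice. ITGA2, an integrin that binds collagen, also had its highest and lowest values in these 2 libraries. It had 25.7, 27.5 and 28.1 FPKM in hHGF-NSG, against 19.8, 12.5, 20.03 and 21.8 FPKM in NSG (0.55, limma adjusted p = 0.309). The same 2 libraries were the extremes of ITGA6, a laminin-binding integrin. Its values were 7.23, 6.87 and 9.69 FPKM in hHGF-NSG, against 6.36, 4.84, 5.32 and 5.24 FPKM in NSG (0.46, adjusted p = 0.301).

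The medians of mesenchymal state genes and keratins were also lower without the same 2 libraries. The 9 tested mesenchymal genes had a median of 0.45, 0.47 without NSG replicate 1, and 0.02 without NSG replicate 2 and hHGF-NSG replicate 3. VIM, the intermediate filament vimentin, had 4.85, 2.69 and 7.20 FPKM in hHGF-NSG, against 3.06, 3.53, 2.69 and 2.97 FPKM in NSG. KRT17, a keratin of stressed and basal epithelia, had 107, 72.7 and 235 FPKM in hHGF-NSG, against 80.8, 9.90, 88.1 and 81.5 FPKM in NSG (1.29, limma adjusted p = 0.485). The median over 14 keratins was 0.24 with all libraries, 0.31 without NSG replicate 1, -0.04 without NSG replicate 2 and -0.23 without both libraries, so its direction rests on them. The fibroblast marker list, given above, also had its highest and lowest sums in the same 2 libraries, 112 FPKM in hHGF-NSG replicate 3 and 26.8 FPKM in NSG replicate 2. COL1A1 made up most of each sum except in NSG replicate 2, where it had 8.89 FPKM and LUM 17.3 FPKM. LUM went the other way from COL1A1, with 10.2 FPKM in hHGF-NSG replicate 3. The part of this list in these differences was not tested.

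The median difference of mucous genes was below 0. Of 20 genes 16 were tested, none was called, and with all libraries 5 were lower and none higher at an unadjusted p under 0.05, with a median of -0.29, while 5 of the 16 differences were positive. With NSG replicate 1 left out, 8 were lower, 2 higher and the median was -0.37. MUC5B, a gel-forming mucin, had 101, 155 and 126 FPKM in hHGF-NSG, against 145, 274, 196 and 224 FPKM in NSG, so only replicate 1 of NSG fell inside the hHGF-NSG range (-0.70, limma adjusted p = 0.480). TFF3, a trefoil peptide secreted with mucins, had 1076, 849 and 957 FPKM in hHGF-NSG, against 1016, 1603, 1344 and 1564 FPKM in NSG (-0.51, adjusted p = 0.411). SPDEF, a factor that drives goblet cell differentiation, had 70.0, 68.4 and 74.5 FPKM in hHGF-NSG, against 82.1, 92.9, 101 and 110 FPKM in NSG (-0.43, adjusted p = 0.410). NSG replicate 2 was the highest library in 8 of the 16 genes and hHGF-NSG replicate 3 the lowest in 6, against 22.7% and 16.4% of all tested genes. Without both, the median shrank from -0.29 to -0.15 and kept its sign.

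**Figure D4:**
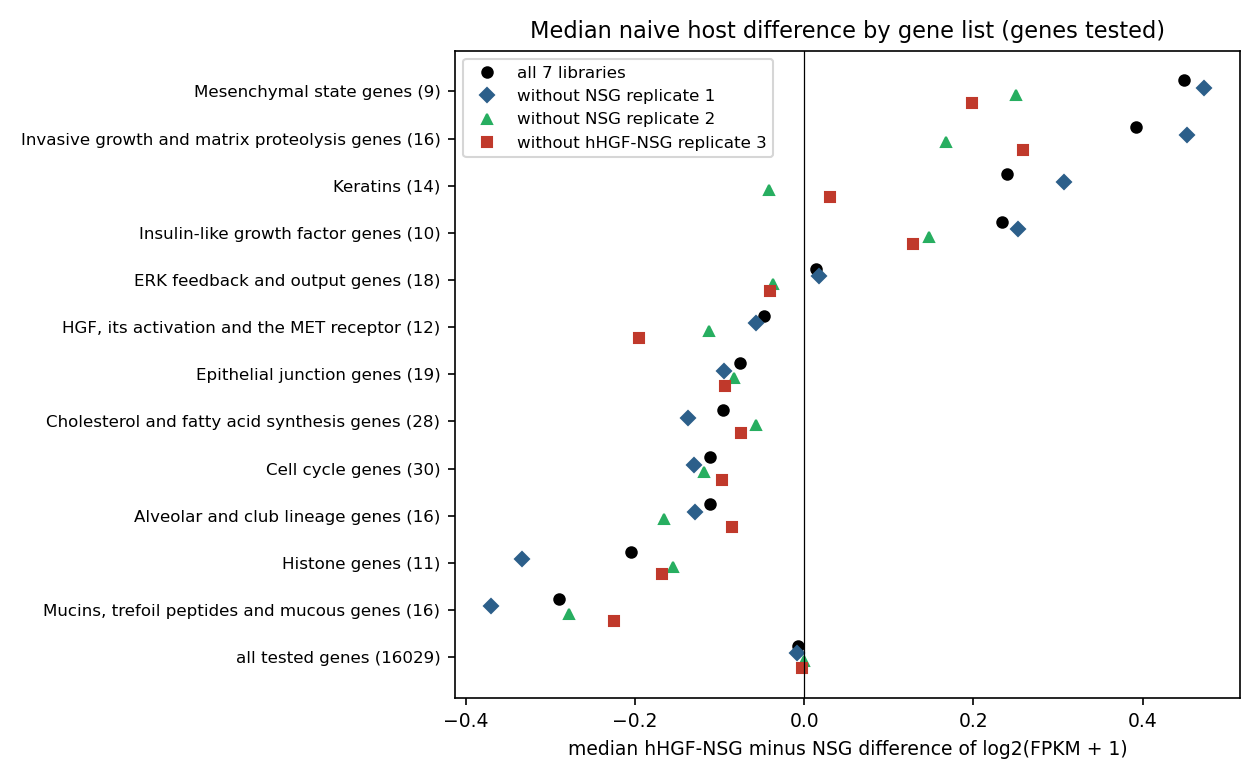
Median hHGF-NSG minus NSG difference of log2(FPKM + 1) by gene list, with all 7 libraries and with 1 library left out, the number of genes tested in brackets. The mesenchymal, invasive growth and keratin medians, 0.45, 0.39 and 0.24 with all libraries, move toward 0 without NSG replicate 2 or hHGF-NSG replicate 3. The mucous median, -0.29 with all libraries, also moves toward 0 but stays below -0.2.

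In none of the other lists was a gene called with all libraries apart from SLC2A3. The 30 cell cycle genes had a median of -0.11, with 3 lower at an unadjusted p under 0.05, among them the kinase PLK1 (12.3, 13.996 and 10.9 FPKM in hHGF-NSG, against 13.9, 15.9, 17.2 and 19.1 FPKM in NSG). The 28 cholesterol and fatty acid synthesis genes had a median of -0.10 with 5 lower, and -0.14 with 7 lower without the library labelled NSG naive replicate 1. NSG replicate 2 was the highest library in 16 of the 28, and the median was -0.05 without it and hHGF-NSG replicate 3. Interferon response genes had a median of -0.05 over 27 genes, with IFI6 at 9.13, 9.85 and 16.4 FPKM in hHGF-NSG, against 29.4, 10.3, 42.6 and 32.1 FPKM in NSG. Among 11 tested histone genes 9 had negative differences, with a median of -0.20 and 3 lower at an unadjusted p under 0.05, and the median was -0.33 with 6 lower without NSG replicate 1. Medians above 0 were 0.23 for 10 insulin-like growth factor genes, 0.22 for 9 heat shock genes and 0.20 for 12 NF-kB genes, and 0.25, 0.28 and 0.19 without NSG replicate 1.

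The difference between hosts was set beside the same difference under alectinib, in other libraries. With all libraries no gene was called between the hosts at 2 weeks (0.0%, with 681 genes or 4.25% at an unadjusted p under 0.05) or at 6 weeks (0.0%, 1946 genes or 12.1%). Voom called 0 and 2 genes, array weights 0 and 252, and single left-out libraries gave up to 1 and 8, the 8 without NSG 6 weeks replicate 3. Of the 40 genes, 28 had the naive direction at 2 weeks (70.0%, against 53.3% of all tested genes) and 11 at 6 weeks (27.5%, against 42.6%). Signed by the naive direction, their median difference was 0.76 in naive tumours without the library labelled NSG naive replicate 1, 0.06 at 2 weeks and -0.05 at 6 weeks. Over all tested genes, signed in the same way, it was 0.13, 0.01 and -0.04. The 40 were chosen for their naive difference, so a smaller one elsewhere is built into the choice. SLC2A3 differed by -0.05 and 0.01 at 2 and 6 weeks, ST6GALNAC1 by -0.28 and 0.17, LRRC26 by -0.45 and 0.45 and BMP7 by -0.14 and 0.18. The invasive growth median was -0.19 at 2 weeks and 0.11 at 6 weeks.

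Whether the host difference itself changed was tested in the same fit. With all libraries no gene was called for 2 weeks against naive (0.0%, 859 genes or 5.36% at an unadjusted p under 0.05) or for 6 weeks against naive (0.0%, 2142 genes or 13.4%). Voom called 0 and 0. Leaving out NSG naive replicate 1 gave 0 and 62 (0.387%). The 62 rested on single libraries: there were 40, 8 and 103 calls when hHGF-NSG naive replicate 1, 2 or 3 was also left out, and 686, 12 and 8 when NSG naive replicate 2, 3 or 4 was. Of the 62, 17 are among the 40, which share their naive libraries with this test.

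**Figure D5:**
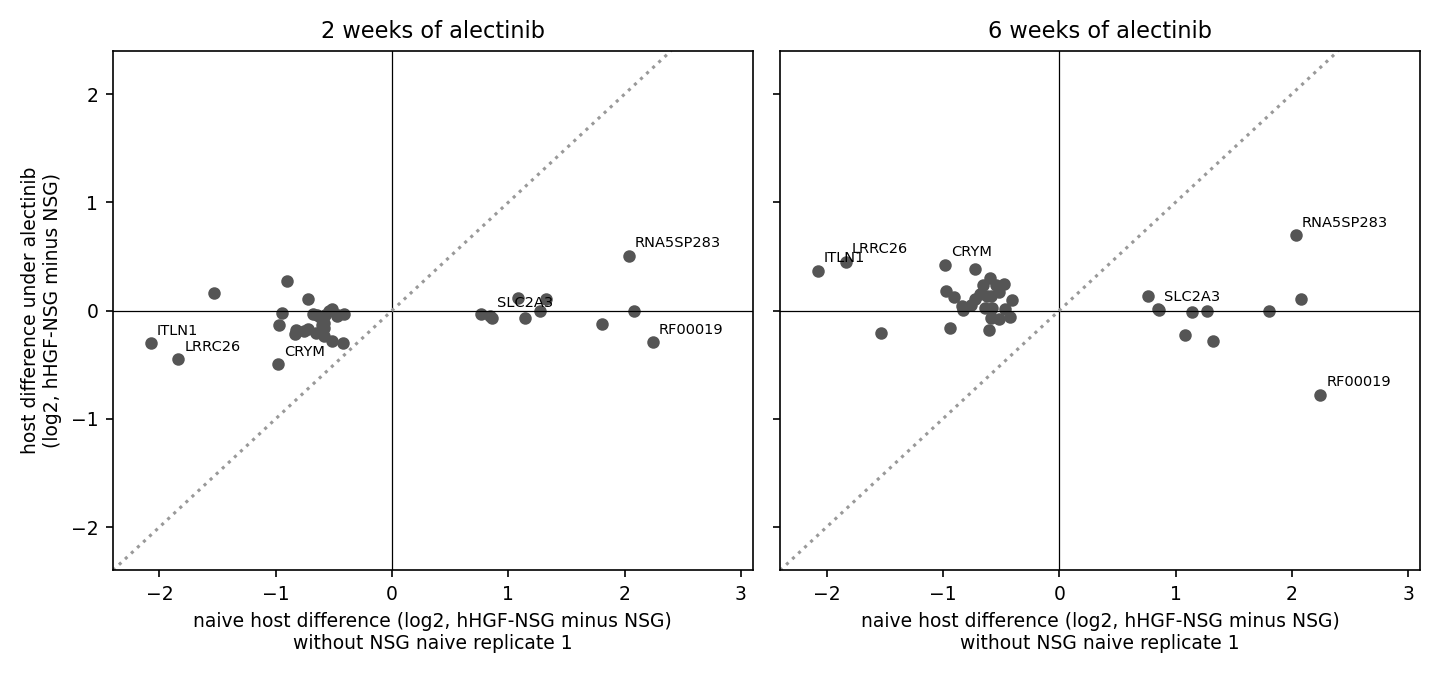
Host difference under alectinib at 2 weeks (left) and 6 weeks (right) against the naive host difference, for the 40 genes called in naive tumours without the library labelled NSG naive replicate 1, with a dotted line of equal differences. The vertical values run from -0.50 (CRYM) to 0.51 (RNA5SP283) at 2 weeks and from -0.78 (ENSG00000200090) to 0.70 (RNA5SP283) at 6 weeks.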

How the data were processed

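Bulk RNA of 22 xenograft tumours was used as the authors deposited it, as FPKM per gene. Reads were mapped to hg38 (GRCh38) and mm10, per the submitters' processing notes, which also name DESeq2 without its role, with aligner, annotation and strand use not given in the sources used here. FPKM times gene length came in whole multiples of 1 step per library for 100% of values (tolerance 0.05 reads), which gave the reads. Genes at 1 FPKM or more in at least 3 samples (16029 of 58735) were fitted on log2(FPKM + 1) with limma 3.58.1 in R 4.3.3, with 1 mean for each of 6 groups over 22 samples, a trended empirical Bayes variance, two-sided tests and Benjamini-Hochberg adjustment at 0.05. Fold changes on that scale understate low genes. In simulated data 29.0% and 87.5% of genes changed by 0.5 and 1.0 (log2) were recovered with all libraries, and 18.5% and 81.0% without NSG naive replicate 1. HGF and the mouse read share had exact permutation tests. Within each host no naive library duplicated another, by a chi-square of their reads per degree of freedom. NSG replicates 3 and 4 were the closest pair, at 4.41, against 15.7 to 62.6 for the other pairs. Whether these 2 came from separate mice is not given by the labels. Pairs across the hosts were not put through that check. The limits given for counts of 0 reads cover counting error only. Each SE comes from the limma fit and so from the spread between libraries.

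The comparison, its members and the 42 gene lists were chosen with earlier results of these data known. Named genes code for protein, have a unique symbol, reach a mean of 2 FPKM in the higher group and do not overlap between hosts. The called genes with the largest difference came first, up to 12 per direction with all libraries and 8 without NSG naive replicate 1, and those with the smallest p filled up to 8. For lists, the most abundant members were taken. All 40 called genes are named beyond that rule. Further genes of the lists, NEAT1 and AP005233.2 were chosen after their values were seen. Items withheld for evaluation are not reported here.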

Additional observations from a re-analysis of the deposited data

Results flagged for a closer look

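Values that stood apart from the other libraries of their host were looked for with Dixon's criterion in the 4 naive NSG libraries, over 56 genes, where chance flags about 1 in 20. That rate does not carry over here, since most of the genes were chosen by a fit without NSG replicate 1 and HGF is the value that singled that library out. It picked 12. In 9 of them the library labelled NSG naive replicate 1 stood apart: UCP2 at 51.8 FPKM (76.8 to 81.5 in the others), LRRC26 at 5.14 (16.5 to 17.5), MAGED1 at 24.6 (33.5 to 35.4), FAIM2 at 6.18 (9.02 to 9.53), CYP1B1 at 3.11 (1.71 to 1.85), MBOAT2 at 14.8 (10.4 to 10.9), RNU6-863P at 2.11 (0 in the others), MIR6784 at 1.09 (0 in the others) and HGF at 0.320 (0 to 0.0061). All 9 lay on the hHGF-NSG side of the other NSG libraries, which the choice of genes favours. In the other 3, NSG naive replicate 2 stood apart: SDC2 at 22.9 FPKM (12.05 to 12.9), LAMA3 at 0.380 (1.22 to 1.34) and ADAM19 at 0.436 (1.85 to 2.21). The groups of 3 hHGF-NSG libraries were too small to look at in this way.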

How the results depend on the processing

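The number of called genes depended on the processing more than any single direction did. With all libraries, the 3 calls became 5 with a pseudocount of 0.1, 25 without the filter, 160 with array weights and 0 with the naive libraries alone, and numbered 3 with median ratio scaling and 4 with voom; 1, 3, 3 and 0 of the 3 remained, then 3 and 2. Leaving out 1 naive library gave 0 to 40 (40 without NSG replicate 1, 4 without NSG replicate 2, 1 without NSG replicate 3, 0 without NSG replicate 4, and 0, 1 and 4 without hHGF-NSG replicates 1, 2 and 3). With the library labelled NSG naive replicate 1 left out, the 40 calls became 87, 79, 1701 and 0 in the same settings, 43 with median ratio scaling and 67 with voom, and leaving out 1 more naive library gave 13 to 36; 31, 33, 40 and 0 of the 40 remained, then 40 and 30. The labels do not say whether replicate numbers pair the samples. Deviations of same-numbered libraries of the 2 hosts correlated at -0.02, 0.24 and 0.27, and those of other pairs at -0.352 to 0.241, which does not settle it. With the replicate number as a block, 1 of the 3 and 13 of the 40 calls remained (1 and 17 calls in all). The change of the host difference at 2 weeks, 0 calls in either fit, became 9 without the filter, and 28 without it and 36 with array weights when NSG naive replicate 1 was left out. At 6 weeks, 0 calls became 6 with a pseudocount of 0.1, 5 without the filter and 2076 with array weights, and ran from 0 to 62 over single left-out libraries; the 62 became 3144 with array weights. The HGF difference was 0.96 with a pseudocount of 0.1 and 0.09 to 0.25 over left-out libraries, and the mouse share difference -0.066 to 3.83 percentage points. The 3 genes called with all libraries had medians of 0.28 and 0.01 in the naive direction at 2 and 6 weeks, against 0.058 and -0.05 for the 40. No gene followed through these settings changed direction. The naive-only fit also tests fewer genes, 12989 and 12786; on the same 16029 genes it called 0 as well, an alternative chosen after seeing the data. The causes were not tested. Between the hosts at 6 weeks, 0 calls became 252 with array weights, and 383 without NSG naive replicate 1, where leaving out NSG naive replicate 2 too gave 17. HGF, at 44 reads or fewer, and the short RNA genes are limited by depth.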

Other observations

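Several targets of the aryl hydrocarbon receptor, a ligand-activated transcription factor, had higher values in hHGF-NSG tumours; they were gathered after CYP1B1 had been seen among the calls. CYP1B1, a cytochrome P450 of hormone and xenobiotic oxidation, had 4.28, 3.47 and 3.48 FPKM in hHGF-NSG, against 1.85, 1.79 and 1.71 FPKM in NSG replicates 2 to 4 and 3.11 FPKM in the library labelled NSG naive replicate 1 (0.77, SE 0.145, limma adjusted p = 0.0294 without that library). CYP1A1, the related P450 and the usual marker of receptor activity, had 2.08, 1.64 and 1.49 FPKM in hHGF-NSG, against 0.617, 0.111, 0.190 and 0.157 FPKM in NSG, with no overlap (1.12, adjusted p = 0.195 with all libraries, and 1.24, adjusted p = 0.0524, without that library). TIPARP, an ADP-ribosyltransferase that restrains the receptor, had 16.6, 15.5 and 13.1 FPKM in hHGF-NSG, against 11.5, 11.2, 7.61 and 7.94 FPKM in NSG (0.62, adjusted p = 0.310). The receptor gene AHR differed by 0.16, ALDH3A1 by 0.21 and NQO1 by 0.01, all with overlapping groups, and none of the 3 was called. Under alectinib the host difference of CYP1A1 was 0.18 at 2 weeks and -0.13 at 6 weeks, and that of CYP1B1 -0.03 and 0.13.

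The tyrosine kinase RET, also picked after its values were seen, had 0.630, 0.464 and 0.603 FPKM in hHGF-NSG, against 3.11, 1.33 and 1.56 FPKM in NSG replicates 2 to 4 and 0.497 FPKM in the library labelled NSG naive replicate 1. Without that library the difference was -0.89 (limma adjusted p = 0.109), and with it -0.65 (adjusted p = 0.457).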
